A study of Nicotiana benthamiana with 12 samples.

Results

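The transcriptome of wild-type (WT) tobacco seedlings after 6 h in 200 mM NaCl was compared with that of untreated WT seedlings, on 3 microarrays per group. At 2 weeks of age, seedlings raised at 25 °C in a day of 16 h light and 8 h dark were taken for both groups. The members of the comparison are the 6 WT arrays of 12 in the series, and on them the probes that were well above background, as flagged by the scanner software, on all 3 arrays of at least one WT group. That rule kept 26261 of the 43759 probes on the array, and the other 17498 were not tested. The remaining arrays, used here to see which changes were shared and to compare slides, are 3 untreated and 3 salt-treated arrays of line L2, 1 transgenic line that carries the ω-3 fatty acid desaturase gene CbFAD3 of Chorispora bungeana under the 35S promoter. WT plants carry no transgene.

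Each sample was a pool of plants, 5 by the series design and 3 by the sample labels, and the sources name the tissue both as leaves and as seedlings. The probes were designed for Nicotiana tabacum, while the plant is labelled Nicotiana benthamiana, and how well they match that species was not examined. Of the probes tested, 22840 were well above background on all 6 WT arrays. The files give each probe an expressed-sequence accession with no gene name, so genes are named only for the 61 probes the study annotated, and no leaf or root marker could be checked. Nothing in the labels says that the 3 samples of a group came from separate batches of plants, so p-values measure the spread between samples, which may in part be technical. That spread was pooled over all 12 arrays, so the WT standard errors (SE) and p-values also carry the scatter among L2 arrays.

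High salt confronts a leaf with water deficit and with sodium and chloride in its cells. Plants are known to answer through abscisic acid, ion transport, osmolyte synthesis and antioxidant enzymes. They are also known to cut growth, cell wall loosening and the costly assimilation of nitrate. Some of the annotated probes below bear on antioxidant enzymes, the cell wall, and nitrate and sulfate assimilation.

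The microarrays lay on 3 slides of 4 arrays, as the file headers give them, and WT normal and WT salt shared no slide. All 3 WT normal arrays shared slide 1 with L2 normal 1. On slide 2, WT salt 1 and 2 lay beside L2 normal 2 and 3, and on slide 3 the remaining WT salt array lay beside the 3 L2 salt arrays. The slides were scanned in separate runs. Over the 20693 probes well above background on all 12 arrays, the WT normal arrays correlated with each other at 0.991–0.995 and with L2 normal 1 at 0.986–0.989. L2 normal 2 and 3, also untreated, correlated with L2 normal 1 at 0.951 and 0.920 and with the WT salt arrays of slides 2 and 3 at 0.959–0.980. WT normal and WT salt arrays correlated at 0.928–0.953. Because no slide held both WT groups, salt and slide cannot be told apart in any WT difference below. Most results are therefore given beside the difference between L2 normal 2 and 3 (slide 2) and L2 normal 1 (slide 1), which by their labels no salt separates. Because the arrays labelled L2 normal 2 and 3 resemble salt arrays, a difference between slides and a mistaken label for these 2 arrays cannot be told apart in these files. Untreated L2 means the arrays so labelled throughout, and every difference between L2 normal slides and every value with the slide as a block depends on those labels.

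Salt-treated and untreated WT seedlings differed at 3429 probes (13.1% of those tested). With limma, 1588 probes (6.05%) were called higher and 1841 (7.01%) lower in salt, where a call asked for an adjusted p under 0.05 together with a change beyond 2-fold. The median log2 difference was 1.54 over the probes called higher, −1.56 over those called lower and −0.20 over all probes tested. The lowest adjusted p from limma was 0.000954, and 6171 probes passed the limit on p at any fold. The salt arrays all lay above the normal arrays for 5604 probes (21.3%) and all below them for 10792 (41.1%). Of the probes that were well above background on all 6 arrays, 1281 were called higher and 702 lower, so most of the lower calls were at probes not well above background on at least 1 WT array.

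The probes called in WT took nearly the same values on untreated L2 arrays of slide 2. Relative to the WT normal mean, the median of the 1588 probes called higher was 1.64, 1.69 and 1.39 on WT salt 1, 2 and 3, and it was 1.32 and 1.42 on L2 normal 2 and 3 but 0.09 on L2 normal 1. For the 1841 probes called lower, the medians were −1.25, −1.54 and −1.52 on the WT salt arrays, −1.20 and −1.46 on L2 normal 2 and 3, and −0.01 on L2 normal 1. The position between the WT groups shows the same for single probes. L2 normal 1 was nearer to the WT salt mean than to the WT normal mean for 3.78% of the probes called higher, against 90.5% and 90.4% on L2 normal 2 and 3. For the probes called lower these shares were 5.27%, 83.7% and 92.9%.

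**Figure D1:**
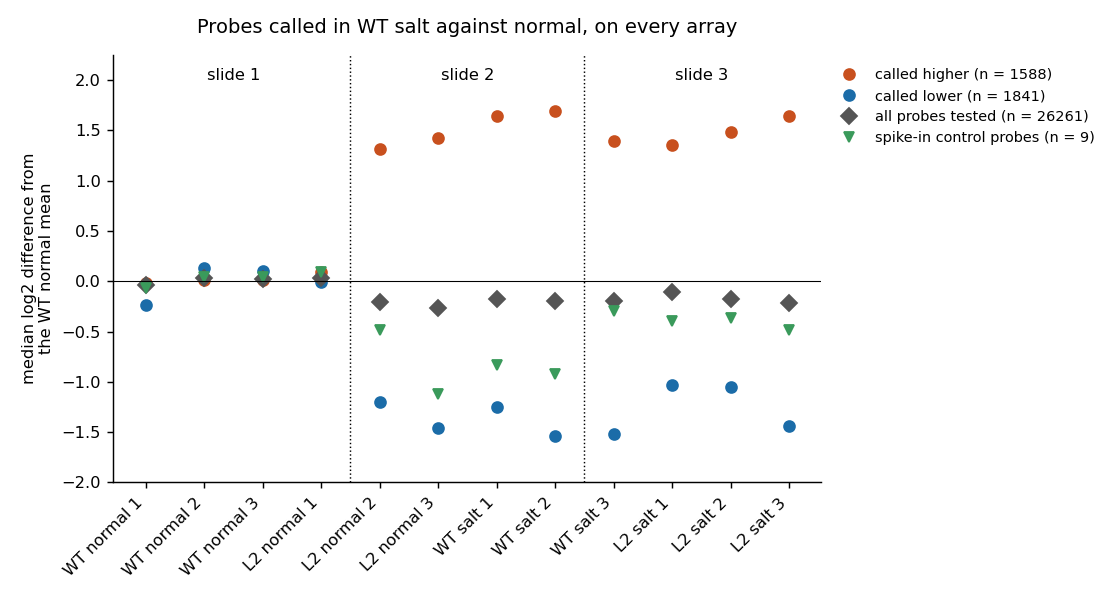
Median log2 difference from the WT normal mean on each of the 12 arrays, in slide order, for the probes called higher or lower in WT salt against normal, for all probes tested and for 9 spike-in control probes. The called probes sit between −0.24 and 0.14 on all 4 arrays of slide 1, L2 normal 1 included, and between 1.32 and 1.69 or between −1.03 and −1.54 on all 8 arrays of slides 2 and 3.

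The same direction was found between the L2 normal slides for 1566 of the 1588 probes called higher (98.6%) and for 1793 of the 1841 called lower (97.4%). The L2 normal difference exceeded 2-fold in that direction for 65.9% and 69.5% of them, against 8.09% higher and 11.7% lower among all probes tested. Over all probes tested, the WT salt difference and the L2 normal difference between slides, which have no array in common, correlated at 0.82. That value is across probes, which are not independent replicates. Between WT salt 3 and WT salt 1 and 2, which lay on slides 3 and 2, the correlation with the WT salt difference was −0.04 and the median over all probes was −0.01.

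**Figure D2:**
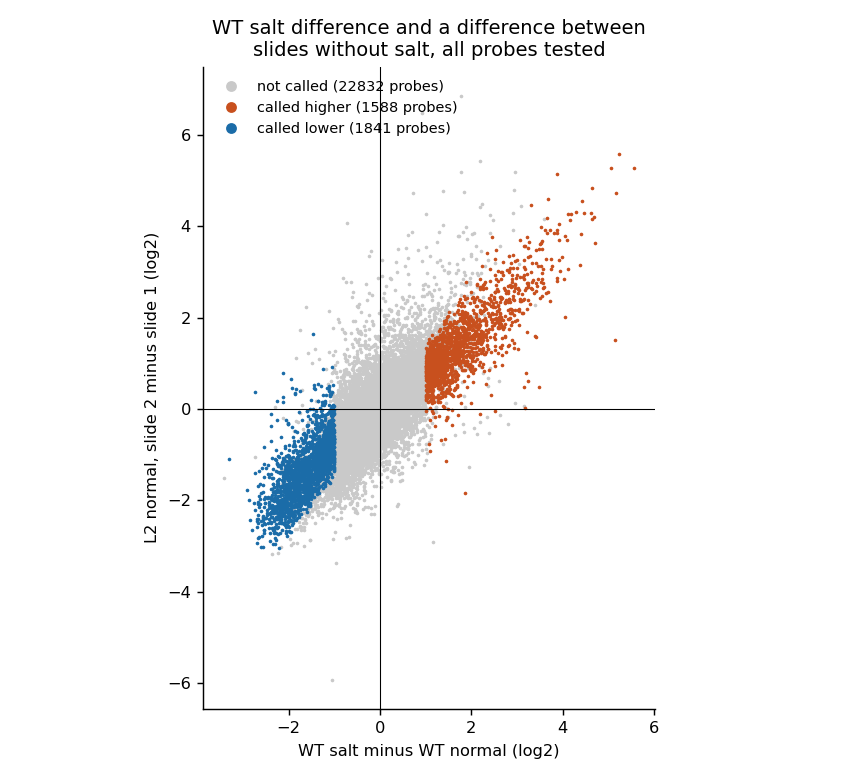
For each of the 26261 probes tested, the log2 difference between WT salt and WT normal (horizontal) is plotted against that between L2 normal 2 and 3 on slide 2 and L2 normal 1 on slide 1 (vertical). The probes called higher and lower in WT lie mostly at the upper right and lower left, and the correlation over all probes is 0.82.

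With the slide as a block in the fit, limma called 1 probe higher and 0 lower, with 1852 probes at an unadjusted p below 0.05. The blocked difference equals that of WT salt 1 and 2 from WT normal, with WT salt 3 left out, minus the L2 normal difference between slides, and it rests on L2 normal 1 alone for L2 on slide 1. Its median was 0.43 over the probes called higher and −0.17 over those called lower, and its median standard error was 0.355 against 0.241 without the block. It still exceeded 2-fold for 253 probes called higher (15.9%) and 137 called lower (7.44%), against 3.48% higher and 3.08% lower among all probes tested. The probe called with the block, A_95_P057741 (BP134292), had log2 values of −3.59, −3.15 and −3.14 on the WT normal arrays and −4.31, −4.08 and −4.68 on the WT salt arrays. It read 1.55 on L2 normal 1 and between −5.01 and −4.31 on the other L2 arrays, so the blocked value of 5.03 (adjusted p = 0.00198 from limma) came from 1 array. Without the block it differed by −1.06 in the opposite direction.

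Signals from spiked control RNA also moved between slides. Of the 10 E1A control probes, which on these arrays report transcripts added to the sample, 1 at the low end of the signal was left out. For all of the other 9 the WT salt arrays lay below the WT normal arrays, by −1.45 to −0.54 on the log2 scale. The value of −1.45 came from E1A_r60_a104, which was itself dim, at −5.82, −6.05 and −5.99 on the WT salt arrays. The next largest difference was −0.82. In L2 normal the same 9 probes were lower on slide 2 than on slide 1 by −1.54 to −0.76, with −1.54 again at E1A_r60_a104 and the next at −0.99. The amounts added are not given in the sources used here, and the part of labelling or amount in the WT differences was not tested.

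The 12 strongest increases in WT, among probes called, well above background on all 6 arrays and with no overlap between groups, ranged from 3.64 to 4.69 on the log2 scale (12.5- to 25.7-fold). Their adjusted p from limma was 0.0112–0.0293, and the next probe in rank stood at 3.63. The largest belonged to A_95_P113672 (CV021247), with log2 values of −2.06, −1.91 and −2.07 on WT normal 1, 2 and 3 and 2.64, 3.00 and 2.38 on WT salt 1, 2 and 3. The difference was 4.69 (SE 0.884, adjusted p = 0.0121 from limma). The standard deviation was 0.089 within WT normal and 0.311 within WT salt, while the SE also carries the scatter among L2 arrays. In L2 the probe read −2.02, 2.16 and 2.22 without salt and 2.28, 3.16 and 3.37 with salt. The untreated L2 arrays were thus split by slide, by 4.21, and the WT difference with the slide as a block was 0.62.

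A_95_P023291 (FG645383) read −4.43, −4.35 and −4.31 without salt and −0.21, 0.13 and −0.68 with salt in WT, a difference of 4.11 (SE 0.665, adjusted p = 0.0112 from limma). On L2 normal 1, 2 and 3 it read −4.24, −0.94 and −1.42, and all 3 L2 salt arrays, at −0.26, −0.30 and 0.47, lay above those of slide 2. A_95_P249857 (AM087457) read −1.09, −0.90 and −0.92 against 3.31, 3.35 and 2.56, a difference of 4.05 (SE 0.884, adjusted p = 0.0169 from limma). Untreated L2 read −0.80 on slide 1 and 3.11 and 2.86 on slide 2, close to the WT salt arrays. A_95_P110137 (CV019598), with −0.80, −0.37 and −0.38 against 3.52, 3.48 and 2.49, had the largest blocked difference of the 12, 1.47 against 3.68 without the block.

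Among all 12, the L2 normal arrays differed between slides by 2.55 to 4.61, in the direction of the WT salt difference. With the slide as a block, the differences ranged from −1.02 to 1.47, 2 stayed above 2-fold, and 3 changed sign, at −1.02 for A_95_P258446 (FG141746), −0.31 for A_95_P074360 (BP526449) and −0.56 for A_95_P247672 (FG170161). The lowest adjusted p of the 12 from limma was then 0.576. L2 shared the direction at all 12 probes and a difference of more than 2-fold at 11, but none passed the test in L2 (lowest adjusted p = 0.160 from limma). The L2 differences, 0.79 to 2.17, average over untreated arrays of both slides. Against L2 normal 2 and 3 alone they were −0.31 to 1.14.

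**Figure D3:**
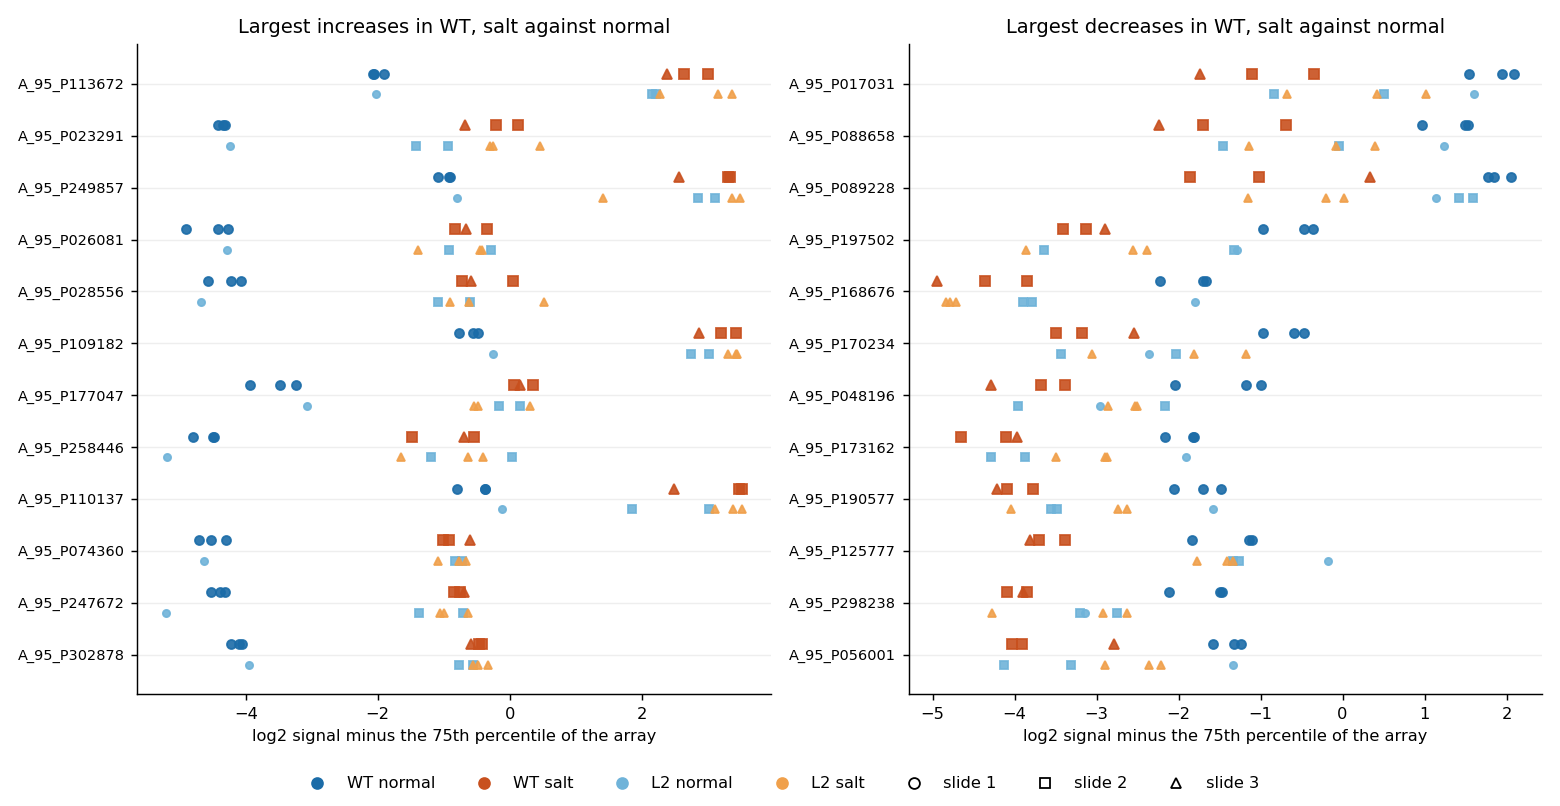
Signal on the log2 scale, set relative to each array's 75th percentile, for the 12 largest increases (left) and 12 largest decreases (right) in WT, with 1 symbol per array. Colour gives the group and shape the slide, with WT arrays on the upper line of each probe and L2 arrays on the lower, and for the increases the L2 normal arrays of slide 2 (light blue squares) sit with the salt arrays.

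The 12 strongest decreases were smaller, from −2.92 to −2.20 (7.56- to 4.59-fold), with an adjusted p from limma of 0.0112–0.0273 and the next probe at −2.19. The 2 largest came from 2 probes of one accession, BP530168. A_95_P017031 read 1.54, 1.94 and 2.09 in untreated WT and −0.35, −1.10 and −1.74 in salt, a difference of −2.92 (SE 0.593, adjusted p = 0.0141 from limma). A_95_P088658 read 0.97, 1.49 and 1.53 against −0.69, −1.70 and −2.24, a difference of −2.88 (SE 0.629, adjusted p = 0.0169 from limma). Both probes were lower on slide 2 than on slide 1 in untreated L2, by −1.78 and −1.99. In L2 the salt difference was −0.17 and −0.18, and neither passed the test.

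Of the 12 decreases, 8 showed a fall of more than 2-fold between the L2 normal slides, and none changed sign with the slide as a block, where the differences ranged from −3.69 to −0.19. For 6 of the 12 the blocked difference still exceeded 2-fold, with a lowest adjusted p of 0.366 from limma. A_95_P089228 (BP530413) read 1.85, 1.77 and 2.05 without salt and −1.01, −1.86 and 0.33 with salt in WT, a difference of −2.74 (SE 0.466, adjusted p = 0.0114 from limma). Its untreated L2 arrays, at 1.14 on slide 1 and 1.59 and 1.42 on slide 2, all lay with untreated WT, and its L2 salt arrays, at −0.20, 0.02 and −1.15, lay with WT salt. The L2 difference of −1.83 did not pass the test (adjusted p = 0.119 from limma).

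L2 shared the direction of 8 of the 12 decreases and a difference of more than 2-fold at 2, A_95_P089228 and A_95_P168676 (EH664486), and called none of them. A_95_P168676 read −2.23, −1.67 and −1.71 against −4.37, −3.85 and −4.94 in WT, a difference of −2.52. Its L2 difference was −1.62, and it was not well above background on any L2 salt array. Of the 12, 3 are annotated, as an APS reductase-like protein, an aspartate aminotransferase and an LHT1-like protein, and are described with their groups below.

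At some strong changes the mean of L2 normal 2 and 3 lay within 0.5 of L2 normal 1 on the log2 scale. That limit was chosen after the values were seen and sets no limit on how far L2 normal 2 and 3 differ from each other. Under the earlier conditions of signal and no overlap, 1280 probes called higher and 701 called lower were eligible. Of these, 94 and 104 met the limit and were also well above background on all 3 L2 normal arrays. The share of all probes tested that meets the limit was not computed. The limit bears on a term of the blocked value, so the blocked values of these probes are not independent of it. The largest increase among them was A_95_P203367 (TA17839_4097), at −3.77, −2.71 and −3.91 without salt and −1.14, −1.21 and −0.78 with salt, a difference of 2.42 (SE 0.684, adjusted p = 0.0318 from limma). Its untreated L2 arrays were widely scattered, at −2.01, −3.01 and −0.40. A_95_P215652 (TA20535_4097) read −4.42, −4.14 and −3.86 against −1.69, −1.78 and −2.35, a difference of 2.20 (SE 0.216, adjusted p = 0.00785 from limma). The untreated L2 arrays, at −2.15, −2.45 and −2.06, already stood at the WT salt level for this probe, on slide 1 as on slide 2.

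The others of the 5 increases were shared by L2 in direction for A_95_P216272 and A_95_P015291 but not for A_95_P215547. A_95_P216272 (EB451507) differed by 1.90 in WT and 0.70 in L2, and A_95_P015291 (DV999984) by 1.75 and 0.80, in the same direction. A_95_P215547 (AY741503) read −3.53, −4.99 and −3.70 against −1.64, −2.41 and −3.05 in WT, a difference of 1.71 (SE 0.549, adjusted p = 0.0457 from limma), while in L2 it was −2.21. Its L2 normal 2 and 3 arrays read −2.23 and −0.73. That opposite value did not pass the test in L2, and the difference between the lines did not either (adjusted p = 0.156 from limma).

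Among the decreases under this limit, A_95_P298238 (FG143606) read −2.12, −1.49 and −1.47 against −4.09, −3.85 and −3.89, a difference of −2.25 (SE 0.365, adjusted p = 0.0112 from limma). Untreated L2 read −3.15 on slide 1, already below untreated WT, and the L2 salt arrays at −4.28, −2.92 and −2.63 overlapped with it. A_95_P048196 (BP131845) differed by −2.38 and A_95_P000166 (EH618220) by −2.12. Their L2 normal 2 and 3 arrays were far apart, at −3.96 and −2.16 and at 1.94 and 0.37.

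**Figure D4:**
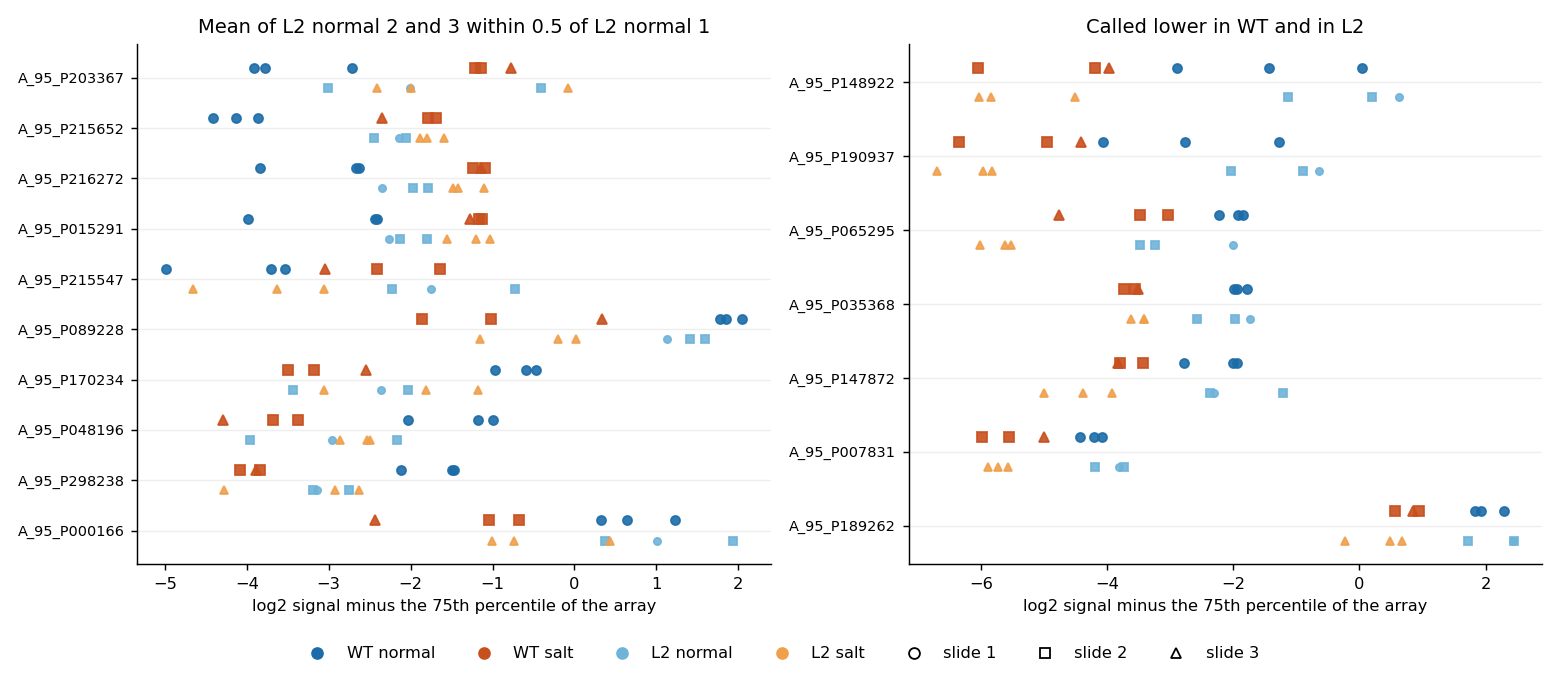
Signal on the log2 scale, set relative to each array's 75th percentile. The left panel shows the 5 largest increases and 5 largest decreases among the probes that qualified in the text. At these the mean of L2 normal 2 and 3 differed from L2 normal 1 by less than 0.5. The right panel shows the 7 probes called lower in both lines. Colour gives the group and shape the slide, with WT arrays on the upper line of each probe, and in the right panel the salt arrays of both lines lie below every untreated array of both lines at 6 of the 7 probes, with an overlap at A_95_P065295.

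In L2, salt against normal gave 4 probes called higher (0.0152%) and 27 called lower (0.103%). Of the WT calls, 0 of 1588 higher and 7 of 1841 lower (0.380% of the WT list and 25.9% of the L2 list) were called in the same direction in L2. A difference of more than 2-fold in the same direction, with no test, was seen for 293 of the WT increases (18.5%) and 285 of the WT decreases (15.5%), against 1.9% higher and 4.1% lower among all probes tested. The untreated L2 arrays lay on 2 slides. The fit used a single spread per probe over all groups, so the standard errors were the same in WT and L2. Why so few probes were called in L2 was not tested. The difference between the responses of the 2 lines was called at 0 probes by limma (lowest adjusted p = 0.103), with 4700 at an unadjusted p below 0.05. That count depended on the arrays and their weights, and was 4389 with L2 normal 1 left out, an alternative chosen after seeing the data, and 5354 with array weights. Whether the probes called in WT alone differ between the lines is therefore not settled by these values.

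The 7 probes called in both lines carried no annotation. A_95_P189262 (AJ966358) was well above background on all 12 arrays and read 1.83, 1.92 and 2.29 in untreated WT and 0.94, 0.56 and 0.84 in salt. The WT groups did not overlap, with a difference of −1.23 (SE 0.273, adjusted p = 0.0176 from limma). L2 read 2.43, 2.45 and 1.72 without salt and 0.67, 0.48 and −0.24 with salt, a difference of −1.89 (adjusted p = 0.0356 from limma), and its untreated arrays differed between slides by −0.35. A_95_P035368 (FG152688) read −1.79, −1.99 and −1.94 against −3.57, −3.74 and −3.51 in WT, a difference of −1.70 (SE 0.204, adjusted p = 0.0112 from limma). Untreated L2 read −1.74, −1.98 and −2.58 and salt-treated L2 −3.62, −3.42 and −3.42, so that all untreated arrays of both lines lay above all salt arrays.

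A_95_P148922 (EB678509) and A_95_P190937 (EB677483) had the largest differences of the 7, −3.31 and −2.53 in WT, and were each well above background on 2 of the 3 WT salt arrays. Untreated WT varied widely at both, from −2.89 to 0.05 and from −4.07 to −1.28. Neither they nor A_95_P007831 (EB677803, −1.28 in WT) nor A_95_P065295 (BP136289, −1.76 in WT) were well above background on any L2 salt array. The blocked WT difference was 0.09 for A_95_P065295, and the remaining 6 kept their direction with the slide as a block, between −2.60 and −0.91.

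Probes without a measured signal on one side have only a bound. There were 227 probes well above background on all WT salt arrays and no WT normal array, and 550 with the reverse, of which 543 had a bound above 1-fold. For the bound, the bright group's mean was set against the dim group's mean, in which each array entered at its dimmest value well above background or at the probe's value if that was higher. The highest bounds for an increase were at least 16.9-fold for A_95_P106987 (EH619416), 15.2-fold for A_95_P164872 (EH624277) and 13.4-fold for A_95_P257139 (FG167905). A_95_P106987 read −5.78, −5.42 and −5.82 in untreated WT and −1.11, −0.56 and −1.47 in salt, and −5.48, −1.37 and −1.03 on L2 normal 1, 2 and 3. A_95_P164872 read −3.23, −0.25 and −0.13 on WT salt 1, 2 and 3, so its bound holds for the group mean and not for WT salt 1. On L2 normal 1, 2 and 3 it read −3.31, −3.79 and 0.17, a mean difference between slides of 1.50. A_95_P257139 differed between the L2 normal slides by 5.28. The highest bounds for a decrease were lower, at least 3.92-fold for A_95_P128447 (EB428128) and 3.72-fold for A_95_P308168 (FG146084), and neither was well above background on any L2 salt array. The L2 normal slides differed at them by −2.06 and −2.26.

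Calls were spread unevenly over signal levels. In the lowest eighth of the tested probes by mean level, 914 probes were called lower and 292 higher. The median difference there was −0.72, against −0.71 between the L2 normal slides. A dim probe admitted only through the untreated WT group tends to be lower in salt by that choice. Of all probes tested, 550 cleared background on 0 WT salt arrays and 227 on 0 WT normal arrays. The excess of lower calls is thus not independent of the filter, and the filter's part in it was not tested. In the highest eighth, 42 were called lower and 20 higher, with medians of −0.31 and −0.52.

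Of the 61 annotated probes, 50 were tested in WT, 34 were called lower (68.0%, against 7.01% of all probes tested) and 0 higher. Their median difference was −1.78, against −0.20 for all probes tested, and −1.57 with 6 probes that have only a bound placed at it. The study chose these probes for a low level in salt-treated WT, relative to salt-treated L2. The arrays it used include WT salt 1, 2 and 3. Neither the fall of these probes in WT nor their level in salt-treated L2 is therefore independent evidence. The counts by gene group below carry the same limit. The median difference between the L2 normal slides was −1.67, and 29 of the 50 were more than 2-fold lower on slide 2. With the slide as a block the median was −0.25, and 7 probes stayed more than 2-fold lower. None was called in L2, where the median was 0.25. The probes numbered 1 to 14 in the study's list, of which 3 were tested, lie in a block of spots with a raised local signal on L2 salt 1 and 2, which touches their L2 values.

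**Figure D5:**
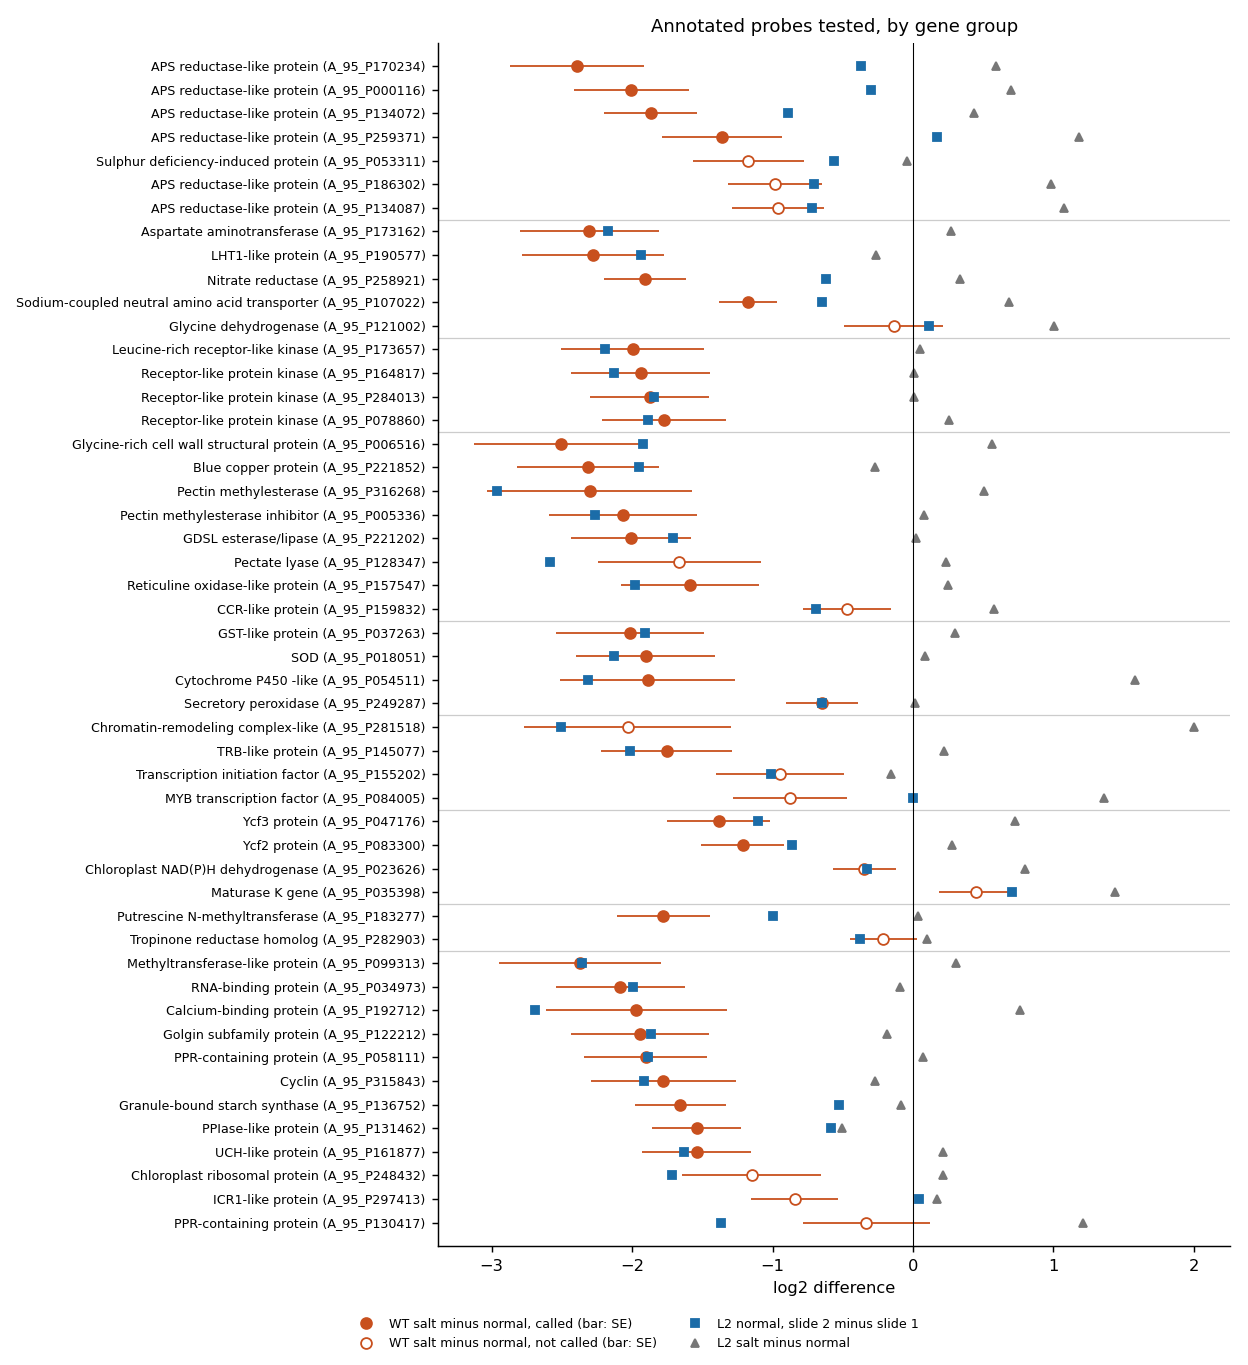
Log2 differences of the 50 annotated probes tested, grouped by function, with WT salt minus normal as circles with the standard error of the fit (filled where called), the difference between L2 normal slides as squares and L2 salt minus normal as triangles, the 6 probes with only a bound being drawn at their measured difference. For kinases and cell wall probes the squares lie close to the circles, while for 3 APS reductase-like probes and nitrate reductase they lie between −0.62 and 0.17.

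Of the sulfur assimilation probes 4 of 7 fell (57.1%), and of the nitrogen and amino acid probes 4 of 5 tested (80.0%). Among all probes tested 7.01% were called lower, and these probes were listed for low levels in WT salt. The medians were −1.36 and −1.91 over those tested, and those between L2 normal slides were smaller, −0.56 and −0.65. Of the nitrogen group only nitrate reductase belongs to nitrate assimilation. APS reductase reduces activated sulfate to sulfite, the step that commits sulfate to cysteine synthesis. Of 6 APS reductase-like probes, 4 fell, by between 1.36 and 2.39 on the log2 scale, and the other 2 differed by −0.98 and −0.96 (adjusted p = 0.0543 and 0.0552 from limma). A_95_P170234 (EH664856) read −0.97, −0.47 and −0.60 without salt and −3.18, −3.50 and −2.54 with salt, a difference of −2.39 (SE 0.476, adjusted p = 0.0134 from limma). A_95_P000116 (FG157904) read 1.42, 1.80 and 1.74 against −0.28, −0.47 and −0.32, a difference of −2.01 (SE 0.411, adjusted p = 0.0145 from limma). A_95_P259371 (FG171287) and A_95_P134072 (HO663864) fell by 1.36 and 1.87. All 6 had every WT salt array below every WT normal array, as did 41.1% of all probes tested.

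Untreated L2 was low already on slide 1 at these probes. L2 normal 1 read −2.36 at A_95_P170234 and 0.20 at A_95_P000116, below every untreated WT array of its own slide, and the slides differed within untreated L2 by −0.37 and −0.30. Over the 6 probes the slide difference was between −0.89 and 0.17 and the blocked WT difference between −2.29 and −0.27. In L2 all 6 had a higher mean with salt than without, with no call. The study's choice of probes favours a high level in salt-treated L2, so this is not independent evidence. At A_95_P170234 L2 read −2.36, −2.03 and −3.44 without salt and −1.81, −1.18 and −3.06 with salt. The L2 groups overlapped at every APS reductase-like probe except A_95_P134087. The probe of a sulfur deficiency-induced protein, A_95_P053311 (EB425896), differed by −1.17 (adjusted p = 0.0516 from limma). A second probe of that accession, A_95_P236344, which the study did not list, read 2.35, 1.65 and 1.74 against 0.78, 0.39 and 0.17, and fell by 1.47 (adjusted p = 0.0306 from limma). The 2 probes differed between L2 normal slides by −0.56 and −0.59.

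Nitrate reductase, which reduces nitrate to nitrite and is the entry step of nitrate assimilation, was represented by 2 probes of X06134. The annotated one, A_95_P258921, read −0.75, 0.24 and 0.25 without salt and −1.89, −2.02 and −2.08 with salt, a difference of −1.91 (SE 0.291, adjusted p = 0.0112 from limma). The other, A_95_P247817, not listed by the study, read 2.40, 3.01 and 3.02 against 0.74, 1.50 and 0.87, a difference of −1.77 (SE 0.274, adjusted p = 0.0112 from limma). Both probes separated the WT groups, with salt below, as did 41.1% of all probes tested. Untreated L2 differed between slides by −0.62 and −0.07, with L2 normal 1 below untreated WT at both, at −0.92 and 1.44, and the blocked WT differences were −1.25 and −1.62. In L2 the salt difference was 0.34 and 0.63, with no call.

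Of the other amino acid probes, that of aspartate aminotransferase (A_95_P173162, EH665543), which moves amino groups between aspartate and glutamate, read −2.17, −1.82 and −1.82 against −4.65, −4.10 and −3.98 and fell by 2.31 (adjusted p = 0.0163 from limma). That of an LHT1-like protein (A_95_P190577, EH615701), whose Arabidopsis relative takes up amino acids, fell by 2.28 (adjusted p = 0.0177 from limma). Both were about as much lower on slide 2 in untreated L2, at −2.17 and −1.94. The sodium-coupled amino acid transporter probe (A_95_P107022, CV018176) fell by 1.17 (adjusted p = 0.0114 from limma), against −0.65 between slides. Glycine dehydrogenase, a photorespiratory enzyme, differed by −0.14 with no call (A_95_P121002).

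Among the probes of cell wall and cell surface proteins, 6 of 8 tested fell, with a median over the 8 of −2.04. The probe of a pectin methylesterase, which removes methyl groups from pectin (A_95_P316268, AY772945), read −2.14, −1.52 and −1.60 against −4.20, −4.72 and −3.24 and fell by 2.30 (adjusted p = 0.0436 from limma). A blue copper protein (A_95_P221852, DV158128) fell by 2.31, a pectin methylesterase inhibitor (A_95_P005336, BP130308) by 2.07 and a GDSL esterase/lipase (A_95_P221202, TA21771_4097) by 2.01. The blue copper probe was well above background on only 1 of the 3 WT salt arrays, and the pectin methylesterase and inhibitor probes on 2. A reticuline oxidase-like protein (A_95_P157547, EH615593) fell by 1.59. A glycine-rich cell wall protein (A_95_P006516, EH616694) cleared background on none of the WT salt arrays and was at least 1.74-fold lower. The median between L2 normal slides was −1.97 in this group and the blocked median 0.07. Pectate lyase, at −1.66, did not pass the test (A_95_P128347, adjusted p = 0.0582 from limma).

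All 4 kinase and receptor probes that were tested fell, against 7.01% called lower among all probes tested. Their falls were between 1.77 and 2.00 on the log2 scale. The leucine-rich receptor-like kinase probe (A_95_P173657, EH665660) read −2.97, −2.69 and −2.71 against −4.89, −5.21 and −4.24, with no overlap. It was well above background on 2 of the 3 WT salt arrays. The receptor-like protein kinase probes A_95_P164817 (EH624155), A_95_P284013 (FG139134) and A_95_P078860 (BP527625) differed by −1.94, −1.88 and −1.77, all called lower. Here too untreated L2 differed by as much between slides, with a median of −2.01, and the blocked median was −0.09. A second probe of the accession FG139134, A_95_P081730, differed by −1.04 with no call, against −1.88 and a call for the listed one. The listed probe of a histidine kinase, EB438355, was not tested, and a second probe of that accession, A_95_P204347, differed by 0.19 with no call and overlapping groups.

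Of the redox probes, those of a superoxide dismutase (SOD, A_95_P018051) and a cytochrome P450-like protein (A_95_P054511) fell by 1.90 and 1.89. They were well above background on 2 and 1 of the 3 WT salt arrays. SOD removes superoxide, and its probe read −3.48, −2.78 and −2.90 without salt and −4.92, −5.41 and −4.55 with salt. The probe of a GST-like protein (A_95_P037263), also called lower, cleared background on none of the WT salt arrays and was at least 2.14-fold lower. The group's median was −2.02 between L2 normal slides and −0.08 with the slide as a block. For the accession AF149251, a secretory peroxidase, the listed probe differed by −0.65 with no call (A_95_P249287), while a second probe was higher in salt. That probe, A_95_P112997, read −1.39, −1.53 and −1.48 against 0.12, 0.09 and −0.19, a difference of 1.48 (SE 0.300, adjusted p = 0.0141 from limma). It was also higher, by 1.24, on slide 2 in untreated L2.

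Granule-bound starch synthase, which makes amylose, had 3 probes of the accession EB680256. A_95_P136752 read −0.69, −0.24 and −0.38 against −2.29, −2.16 and −1.82 and fell by 1.66 (adjusted p = 0.0126 from limma). A_95_P245082 fell by 1.07 (adjusted p = 0.0341 from limma), and A_95_P138762 differed by −0.82 (adjusted p = 0.0812 from limma). At all 3 the WT salt arrays lay below the WT normal arrays, as at 41.1% of all probes tested. The L2 normal slides differed by −0.53, −0.14 and 0.45, with blocked WT differences of −1.26, −0.89 and −1.40.

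Over the annotated list, 7 of the 34 probes called lower differed by less than 0.7 between the L2 normal slides, a limit chosen after the values were seen. They are 3 APS reductase-like probes (A_95_P170234, A_95_P259371 and A_95_P000116), nitrate reductase (A_95_P258921), a PPIase-like protein (A_95_P131462), the sodium-coupled amino acid transporter and granule-bound starch synthase.

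In the group of other functions 9 of 12 probes tested fell, with a median of −1.72 over the 12 and of −1.79 between L2 normal slides. The largest difference was −2.37, called lower, for a methyltransferase-like protein (A_95_P099313, BP534878), which read −2.56, −2.40 and −2.60 without salt and −5.16, −5.25 and −4.26 with salt. It was well above background on 2 of the 3 WT salt arrays and differed by −2.36 between L2 normal slides. The probes of a calcium-binding protein (A_95_P192712), a Golgin subfamily protein (A_95_P122212) and a pentatricopeptide repeat (PPR)-containing protein (A_95_P058111) differed by −1.97, −1.94 and −1.90, all called lower, with slide differences of −2.69, −1.87 and −1.89. Those of a cyclin (A_95_P315843) and a UCH-like protein (A_95_P161877) differed by −1.78 and −1.54, both called lower, with slide differences of −1.91 and −1.63. The calcium-binding probe was well above background on 2 of the 3 WT salt arrays, and the cyclin probe on 1. An RNA-binding protein probe (A_95_P034973) cleared background on no WT salt array and was at least 2.06-fold lower. It read −3.54, −5.57 and −5.50 on L2 normal 1, 2 and 3, lower on slide 2. The PPIase-like probe fell by 1.54, with a slide difference of −0.59 (A_95_P131462).

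The remaining groups were small. Of 4 transcription and chromatin probes tested, 1 fell (25.0%, against 7.01% called lower among all probes tested). It was that of a TRB-like protein (A_95_P145077), which fell by 1.75. Untreated L2 differed by −2.02 between slides at that probe, and the WT difference with the slide as a block was 0.11. The probes of a transcription initiation factor (A_95_P155202) and a MYB transcription factor (A_95_P084005) differed by −0.95 and −0.88, and that of a chromatin-remodeling complex-like protein (A_95_P281518) was, like the MYB probe, not measured above background in WT salt. Of 4 taken as plastid transcripts, those of Ycf3 (A_95_P047176), a photosystem I assembly factor, and Ycf2 (A_95_P083300) fell by 1.38 and 1.21, against −1.10 and −0.86 between L2 normal slides. Maturase K differed by 0.45 at the listed probe (A_95_P035398), with overlapping groups, and by −0.66 at a second probe of that accession (A_95_P260261), where all salt arrays lay below. Neither passed the test. The chloroplast NAD(P)H dehydrogenase differed by −0.35 (A_95_P023626), without a call. Putrescine N-methyltransferase, the first committed enzyme of nicotine synthesis, which tobacco makes in its roots (A_95_P183277), was well above background on the 3 untreated WT arrays, at −4.60, −4.28 and −4.28, and on none of salt, at least 1.43-fold lower. On L2 normal 1, 2 and 3 it read −4.26, −5.04 and −5.48, lower on slide 2. A tropinone reductase homolog differed by −0.21 with no call (A_95_P282903). The endogenous plastidial ω-3 desaturase NtFAD7 (A_95_P237544, D79979), which makes linolenic acid in chloroplast lipids, read 4.09, 4.39 and 4.21 without salt and 3.85, 3.77 and 3.72 with salt. The groups did not overlap, and the difference of −0.45 (SE 0.197, adjusted p = 0.107 from limma) did not pass the test, beside −0.53 between the L2 normal slides.

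Probes that share an accession give a further comparison within the array. For 280 accessions with 2 tested probes at least 1 was called in WT. The signs agreed for 171 of them, and both probes were called the same way for 30. Among all probes tested 6.05% were called higher and 7.01% lower. The agreement of unrelated probe pairs was not computed, so these counts do not show how far probes of 1 accession agree beyond that.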

How the data were processed

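RNA from 12 seedling pools was hybridized to one-colour Agilent 4 × 44 tobacco arrays. The authors extracted spot intensity values with Feature Extraction (version 11.5.1.1 in the file headers, 10.7.3.1 in the submitters' notes), and the deposited intensity values were not normalized between arrays. The deposited value table holds log2 values that the authors shifted by the 75th percentile of each array in GeneSpring GX. Checked against the scanner values, 100% of single-spot probes fit a single shift for their array to within 0.01. Calls in the methods rest on a t-test for unpaired groups, Benjamini-Hochberg adjustment and a limit of 2-fold. The study's own fold values were not used.

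Group means over all 12 arrays were fitted to the deposited log2 values with limma 3.58.1 (lmFit, contrasts.fit, eBayes) in R 4.3.3, with 8 residual degrees of freedom (6 once slides were added as a block). All adjusted p are Benjamini-Hochberg values over the 26261 probes tested. The script was tested on simulated data. Tables and figures used Python 3.11.15, pandas 2.3.3 and matplotlib 3.10.9. Probes of one accession were kept apart. Named probes are the 12 largest increases and decreases among called probes well above background on all 6 WT arrays with no overlap, the 5 highest bounds each way, and the annotated probes that were called, with up to 4 of the largest differences per group. Probes called in both lines, those alike between L2 normal slides, the probe called with the block and second probes of an accession were added after their values were seen. The members and lists were chosen with earlier results of these data known. Gene lists for salt responses, leaf and root were matched to 0 probes, since the files carry no descriptions. Alternatives covered the source, background correction, scaling, filter, arrays, replicate and slide block, weights, variance model, test, thresholds, local signal floor and each WT array left out.

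Arrays had 49.2–63.0% of probes well above background. Their number per group, 3, limits precision.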

Additional observations from a re-analysis of the deposited data

How the results depend on the processing

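Called counts in WT, 1588 higher and 1841 lower, were most changed by the slide. With it as a fixed or a random block 1 probe was higher and 0 lower, 0 calls were shared with L2, and the median of the annotated probes was −0.25 and −0.90. In the fixed block 21 named probes changed sign, to −1.02 (A_95_P258446), −0.31 (A_95_P074360), −0.56 (A_95_P247672), 0.0905 (A_95_P065295), 5.03 (A_95_P057741), 0.57 (A_95_P281518), 0.44 (A_95_P054511), 0.25 (A_95_P316268), 0.47 (A_95_P192712), 0.73 (A_95_P128347), −0.26 (A_95_P035398), 0.21 (A_95_P157547), 0.22 (A_95_P159832), 0.0198 (A_95_P018051), 0.11 (A_95_P145077), 1.29 (A_95_P130417), 0.80 (A_95_P248432), 0.17 (A_95_P282903), 0.33 (A_95_P081730), 0.11 (A_95_P237544) and 0.10 (A_95_P260261). In the random block 2 did, to 1.83 (A_95_P057741) and 0.36 (A_95_P130417). With WT salt 3 alone there were 4 higher, 219 lower and 1 shared, with a median of −1.38. Each WT array left out in turn gave 420–1472 higher, 96–1088 lower and 0–18 shared calls. Of the 3429 calls, 501 were kept without WT normal 2, 570 without WT normal 3, 661 without WT salt 2, 1339 without WT normal 1, 1331 without WT salt 1 and 2147 without WT salt 3.

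Normexp gave 936 higher, 975 lower and a median of −1.30. Quantile normalization gave 1734 and 1221 (58.7% of calls higher, against 46.3%), scaling on the median 1877 and 1412 (57.1%), and on the 75th percentile of detected probes 1895 and 1403 (57.5%), with 56, 24 and 19 calls shared with L2. The median of all probes moved from −0.20 to −0.10, −0.08 and −0.06. Without a filter 819 probes were lower (61.1% of calls higher) and 0 shared, and with the filter on all 6 WT arrays 709 were lower (64.5%). The fit of the WT arrays alone gave 1949 higher and 2391 lower, the methods' t-test 1860 and 2154, or 1666 and 1685 after adjustment. Array weights gave 2778 lower, 490 shared and 5354 probes that differed between lines. With no fold limit 2629 were higher, 3542 lower and 14 shared, and with no test 771 were shared and 3863 differed between lines. Trend and robust variance shared 11. With L2 normal 1 left out, 4389 probes differed between lines and 3 calls were shared, and with L2 salt 1 and 2 left out, 8 differed. With the slide as a fixed block, 1 did. The cause of these shifts was not tested. With the replicate number as a block, 1611 probes were higher, 1871 lower and 13 shared. Deviations of same-numbered arrays correlated at −0.28, 0.06 and −0.09, so the numbers do not pair the samples.

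Over the single named probes, 1601 values kept direction and side of the threshold, 491 dropped below it, 25 passed it and 23 changed sign.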
